A study of Oryza sativa Indica Group with 12 samples.

Results

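Ribosomal protein and translation factor genes of rice were followed through anther development. A gene was taken when its symbol or a synonym, with or without the prefix Os, began with RPS or RPL and a number, or with EF-1, EF1, eIF or EIF, and when it lay in the nuclear genome. Of 40 nuclear genes with such a name, 33 were paired alone with at least 1 probe set of the array, out of 17905 genes so paired. By name they were 12 genes of the small ribosomal subunit, 13 of the large subunit, 6 of translation initiation and 2 of elongation. The initiation class takes in eIF-4A-III, which is known as part of the exon junction complex. The remaining 7 were not analysed here, and 39 organelle genes with a matching name were left out. Each gene was represented by its probe set with the highest mean log2 signal, and all 33 had a mean signal over 10, the background limit, in every stage.

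The cytosolic ribosome has a small subunit, which reads the messenger RNA, and a large subunit, which forms the peptide bonds. Ribosomal proteins of both are needed in near-equal numbers, and plant genomes commonly carry several expressed copies of the gene for each. Initiation factors bring the messenger RNA to the small subunit: eIF4E binds the cap, eIF4G is the scaffold, eIF4A is an RNA helicase and eIF3 bridges the complex to the small subunit. Elongation factor 1 delivers aminoacyl-tRNA to the ribosome, its alpha subunit as the carrier and its beta subunit as the exchange factor. In young anthers cells divide and the tapetum, the nursing cell layer, builds up its secretory machinery, while the mature pollen grain of flowering plants is known to store messenger RNA and ribosomes for germination.

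Whole anthers of wild type rice, Oryza sativa subsp. indica variety IR64, were hybridized to an Affymetrix rice array at 4 stages, with 3 biological replicates each, 12 arrays in all. Pre-meiotic anthers (PMA) were 350 to 450 µm long, meiotic anthers (MA) 500 to 850 µm, anthers with single-celled pollen (SCP) 900 to 950 µm and anthers with tri-nucleate pollen (TPA) 2000 to 2500 µm. Each sample bulked anthers of several plants and held germ line and wall cells together, so fewer cells of a type and less RNA per cell cannot be told apart. A different experimenter ran the MA arrays, so experimenter and stage cannot be told apart for MA. Values are GC-RMA intensities as deposited, on a linear scale, and are called signal here.

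Genes known from single stages were read as a check of the labels. MEL1, an Argonaute of germ cells before meiosis, averaged 57.1 ± 7.63 in MA and 7716 ± 604 in PMA (SD, n = 3 each). The tapetal gene C6 stood at 31319 ± 7434 in SCP, and the pollen gene CPK29 at 12961 ± 2782 in TPA against 4.63 ± 0.0132 in SCP. The meiotic gene PAIR2 was highest in MA, at 3558 ± 107 in MA against 621 ± 168 in PMA, and at 146 ± 122 in SCP. DMC1, a meiotic recombinase, did not peak there (457 ± 14.0 in MA and 569 ± 185 in PMA), and PAIR1 was near background at 14.4 ± 4.31 in MA and 12.5 ± 1.67 in PMA. The leaf gene CAB2R differed widely between replicates, at 343 ± 457 in PMA, 5320 ± 2891 in SCP and 464 ± 460 in TPA. It was 1098 ± 35.7 in MA. The leaf gene rbcS was 208 ± 21.4, 480 ± 45.0, 612 ± 85.8 and 62.1 ± 39.3 in PMA, MA, SCP and TPA. Whether leaf tissue was carried along was not tested. Replicate arrays correlated at 0.989 to 0.998 in PMA, MA and SCP, and at 0.967 to 0.984 in TPA (Pearson's r over log2 values). The upper quartile of the signal ran over 108 to 115 (PMA), 103 to 108 (MA), 99.4 to 106 (SCP) and 64.6 to 73.0 (TPA), so it was lowest on the TPA arrays. The ratio of the 3′ to the 5′ GAPDH probe sets ran over 2.57 to 2.58 (PMA), 4.74 to 5.42 (MA), 4.74 to 5.47 (SCP) and 3.57 to 3.83 (TPA), and its part in the results was not tested. Of 18 hybridization control probe sets, 18 were higher in MA than in PMA, 11 in SCP than in MA and 14 in TPA than in SCP. Their median log2 differences were 0.55, 0.09 and 0.49, and the part of these in the results was not tested.

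Most of these genes had a strong signal before and during meiosis and a lower one in both later stages. The stage mean was highest in PMA for 22 genes, in MA for 8, in SCP for eIF4G alone and in TPA for rps14 and eIF-4A-3, against 29.6%, 17.9%, 20.5% and 32.0% of paired genes. It was lowest in TPA for 28 genes, in SCP for RPS10-1, RPL39C and eIF-4A-3, and in PMA for rps14 and eIF4G, against 45.6%, 24.1% and 17.4% of paired genes. The median signal of the 33 genes was 10716 in PMA, 10304 in MA, 3454 at the SCP stage and 1922 at the TPA stage. A mean over 10000 was reached by 19 genes before meiosis, 17 in meiosis, 2 in SCP and 0 in TPA. Together they made up 1.83% ± 0.0356 of the summed signal of all rice probe sets in PMA and 1.64% ± 0.00519 in MA. The share was 0.784% ± 0.00642 in SCP and 0.425% ± 0.0642 in TPA (SD, n = 3 arrays each). Signals of different probe sets are not on 1 scale, so these are not shares of transcripts.

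A gene was called over the 4 stages when limma's moderated F-test, with Benjamini-Hochberg adjustment, passed at 0.005 and the highest and lowest stage means differed at least 2-fold. This was so for 31 of 33 genes, against 60.0% of all paired genes and 31.9% of all rice probe sets. Among paired genes over 10 in a stage it was 68.9%. The exceptions were eIF4E, with 1.69-fold between its highest and lowest stage, and eIF4G, with 1.67-fold. The stage mean was lower at each of the 3 steps for 19 of 33 genes, against 15.2% of all paired genes. Median folds between the highest and the lowest stage were 4.81 in the small subunit, 7.49 in the large subunit, 2.52 in initiation and 5.82 in elongation. All paired genes stood at 3.50, and those over 10 in a stage at 4.30.

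**Figure D1:**
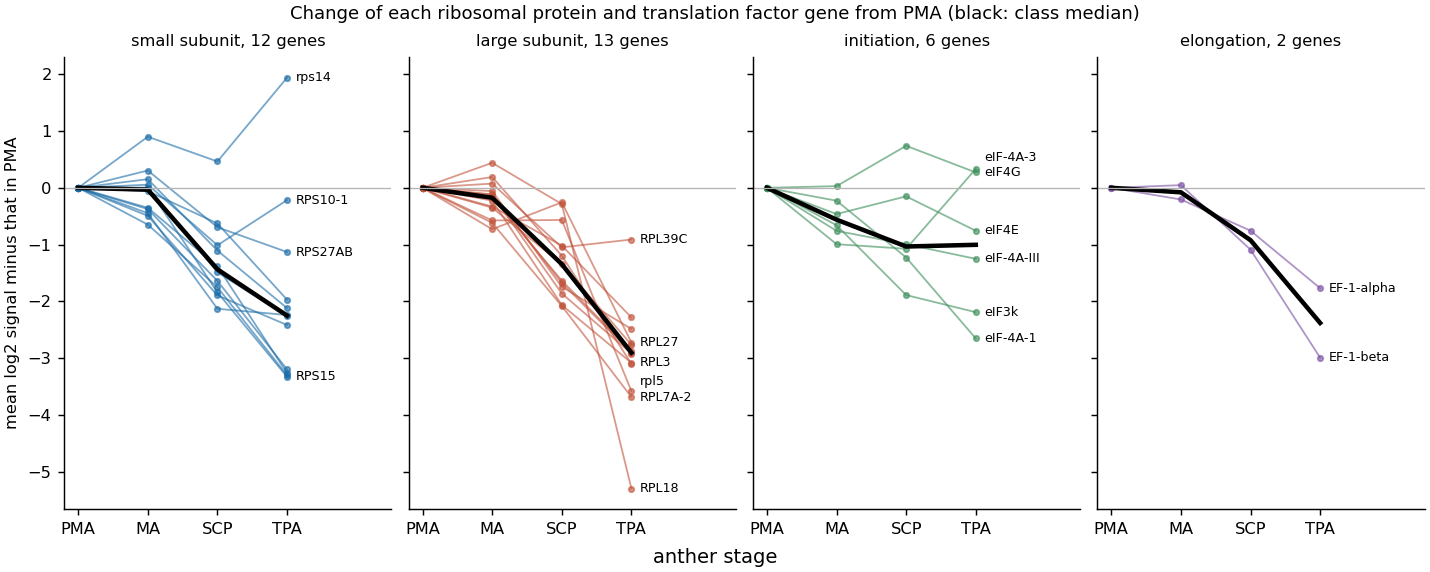
Mean log2 signal of each gene minus its mean in PMA (vertical axis) at the 4 anther stages (horizontal axis), in 1 panel per class, with the class median as a black line and selected genes named. The ribosomal protein medians end at -2.25 for the small and -2.90 for the large subunit in TPA, while rps14 lies above its PMA level and RPL18 lies below all other genes.

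Between pre-meiotic and meiotic anthers no gene passed both limits of a call. None was called at the same adjusted p of 0.005 and 2-fold in MA against PMA, where 6.15% of paired genes were called higher and 4.45% lower (3.31% and 3.03% of all rice probe sets). With limma, 2 genes were higher and 14 lower in MA at an unadjusted p under 0.05. The share of paired genes at that unadjusted limit is not given here, so no trend is read from these counts. An unmoderated test of each pair of stages also called 0 genes. The median log2 difference was -0.21 over all 33 genes, -0.18 in the large subunit, -0.03 in the small subunit and -0.08 in elongation. Shifting the arrays to a common median turned the small subunit median to 0.047 and the elongation median to 7.0e-05. The median over all paired genes was -0.01.

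The initiation genes had the lowest class median at this step, -0.56. For eIF-4A-3, a gene of the eIF4A helicase family, the signal was 1996, 2036 and 2093 in MA, against 3782, 3937 and 4504 in PMA. The ranges did not overlap, and the log2 difference was -0.99 ± 0.12 (SE, limma adjusted p = 0.000484), just short of 2-fold. For eIF3k, a small subunit of the eIF3 complex, it was -0.66 ± 0.04 (adjusted p = 6.47e-06), and for eIF-4A-III, a family member known as part of the exon junction complex, -0.76 ± 0.11 (adjusted p = 0.00131). Among ribosomal proteins RPS4 differed by -0.65 ± 0.08 (adjusted p = 0.000537) and rps14 by 0.90 ± 0.10 (adjusted p = 0.000313), the only pair of them at an adjusted p of 0.005 or less. At this step the MA arrays lay wholly below the PMA arrays for 20 genes and above for 3, against 30.6% and 26.3% of paired genes.

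After meiosis many genes passed both limits. In SCP against MA 20 of 33 genes were called lower and none higher. Over all paired genes 8.33% were called lower and 6.65% higher (4.47% and 3.86% of all rice probe sets). For paired genes over 10 in a stage these shares were 9.56% and 7.64%. At an unadjusted p under 0.05 limma gave 26 lower and 2 higher, without the share of paired genes at that limit. The only higher gene at an adjusted p of 0.005 or less was eIF4G. The called genes were 9 of 12 in the small subunit, 8 of 13 in the large subunit, 2 of 6 in initiation and EF-1-beta in elongation. The median log2 difference was -1.10 over the group, -1.18 in the small subunit, -1.39 in the large subunit, -0.16 in initiation and -0.84 in elongation, against -0.02 over all paired genes. The SCP arrays lay wholly below the MA arrays for 28 genes and above for 3, against 42.0% and 27.8% of paired genes.

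In the small subunit RPS15, a protein near the decoding site, had the lowest log2 difference, with a signal of 2865, 2679 and 3476 in SCP, against 10149, 10242 and 11930 in MA. Every SCP array was below every MA array, and the log2 difference was -1.85 ± 0.33 (adjusted p = 0.00353). This call was lost in 10 of the 12 fits that left out 1 array, with the same direction in each. The SE pools the spread of all 4 stages, and the TPA arrays of RPS15 ranged from 630 to 1900. The call was kept without TPA replicate 2 and without TPA replicate 3. RPS26, which lies near the messenger RNA exit, followed at -1.68 ± 0.24 (adjusted p = 0.00114, lost in 5 of 12 such fits) and RPS10-2, the gene named RPS10 in the table, at -1.48 ± 0.10 (adjusted p = 7.80e-06). For RPS10-2 the arrays read 3599, 3634 and 3825 in SCP and 9938, 9964 and 11011 in MA, which placed the groups far apart. The 3 small subunit genes not called were rps14 at -0.44, RPS21 at -0.57 and RPS27AB, whose difference lay just under 2-fold.

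In the large subunit RPL3, which reaches toward the peptidyl transferase center, was 2030, 2024 and 2381 in SCP, against 8076, 7090 and 7814 in MA. That is a log2 difference of -1.84 ± 0.16 (adjusted p = 5.67e-05), and RPL5A, a partner of 5S ribosomal RNA, was at -1.74 ± 0.14 (adjusted p = 2.86e-05). RPL30, which in yeast also binds its own transcript, fell by 1.69 ± 0.13 on the log2 scale (adjusted p = 2.74e-05), with 2968, 2897 and 3854 in SCP and 9668, 10020 and 11396 in MA. RPL9 was at -1.39 ± 0.13 (adjusted p = 7.96e-05). All of these sat below MA without overlap. The uncalled large subunit genes were RPL10A at -0.99, RPL18 at -0.73, RPL39B at -0.69, rpl5 at 0.01 and RPL27 at 0.47.

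Translation factors split at this step. The initiation gene eIF3k fell to 1107, 1053 and 1094 in SCP, against 2549, 2602 and 2477 in MA, a log2 difference of -1.23 ± 0.04 with the smallest SE among the 33 genes (adjusted p = 5.62e-08). The helicase eIF-4A-1 was called at a difference just over 2-fold, with 5473, 5569 and 4705 in SCP against 10639, 10261 and 10516 in MA (adjusted p = 3.64e-05), and lost the call in 3 of 12 fits without 1 array. For the scaffold eIF4G the arrays read 1873, 1829 and 1718 in SCP, against 1067, 1089 and 1156 in MA. This probe set of eIF4G stood higher without overlap, at 0.71 ± 0.10 (adjusted p = 0.000771), but under 2-fold. Its other probe sets, described further on, differed. The cap-binding eIF4E was at 0.31 ± 0.09 (adjusted p = 0.0408), eIF-4A-3 at -0.08 ± 0.12 and eIF-4A-III at -0.24 ± 0.11. EF-1-beta fell by 1.14 ± 0.05 on the log2 scale (adjusted p = 8.27e-07), with 7718, 8272 and 8475 in SCP against 17615, 18646 and 17519 in MA, while EF-1-alpha was at -0.55 ± 0.07 (adjusted p = 0.000531).

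**Figure D2:**
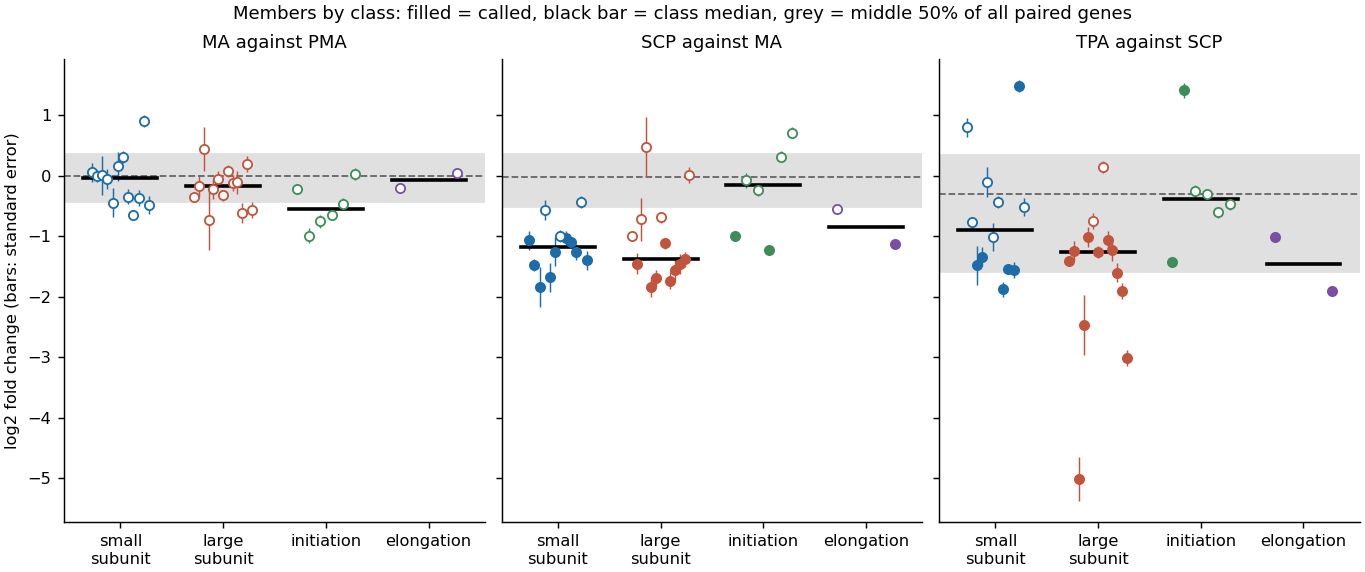
Log2 fold change of each gene with its standard error (vertical axis) by class (horizontal axis) in the 3 comparisons of adjacent stages. Filled points are called genes, black bars class medians, and the grey band the range between the quartiles of all paired genes with their median as a dashed line; 20 points are filled below zero in SCP against MA, and 19 below and 2 above in TPA against SCP.

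Between single-celled and tri-nucleate pollen a second set of falls followed. In TPA against SCP 19 of 33 genes were called lower, and rps14 and eIF-4A-3 were called higher. The count of genes called lower was 10 by an unmoderated test of each pair of stages and 11 when only the compared stages were fitted. Calls were common in this comparison, at 30.7% lower and 14.0% higher over all paired genes (14.9% and 8.22% of all rice probe sets). For paired genes over 10 in a stage these shares were 35.2% and 16.1%. The TPA arrays lay wholly below the SCP arrays for 28 genes and above for 3, against 45.3% and 31.9% of paired genes. The genes called lower were 5 of 12 in the small subunit, 11 of 13 in the large subunit, eIF-4A-1 in initiation and both elongation genes. Of 33 genes, 12 were called lower both in SCP against MA and in TPA against SCP, against 2.61% of paired genes, and none was called lower at all 3 steps, against 0.195%. The 12 were RPS15, RPS3A, RPS4, RPS7, RPL11, RPL3, RPL5A, RPL7A-1, RPL7A-2, RPL9, eIF-4A-1 and EF-1-beta.

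Medians were -1.06 over the group, -0.89 in the small subunit, -1.27 in the large subunit and -1.46 in elongation, against -0.31 over all paired genes and -0.61 over those above 10 in a stage, and -0.39 in initiation, which became 0.23 when the arrays were shifted to a common median. That shift raised TPA against SCP by about the difference of its stage shifts, 0.50 in TPA and -0.11 in SCP, and left 6 of 33 genes called lower (RPS3A, RPL18, RPL27, rpl5, RPL9 and EF-1-beta) and 3 higher (RPS10-1, rps14 and eIF-4A-3), against 22.2% lower and 22.0% higher over all paired genes with the same shift. The share of genes called lower was then not above that of all paired genes. Quantile normalization left 18 lower and 2 higher, against 25.2% and 15.6% of paired genes. Relative to the median of all paired genes, the group median was -0.75 as deposited and -1.06 after quantile normalization. The common shift moves both medians equally and cannot change this difference. In SCP against MA the same relative median was -1.08 as deposited and -1.11 after quantile normalization. There the common shift left 17 genes lower, against 8.51% of paired genes.

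**Figure D3:**
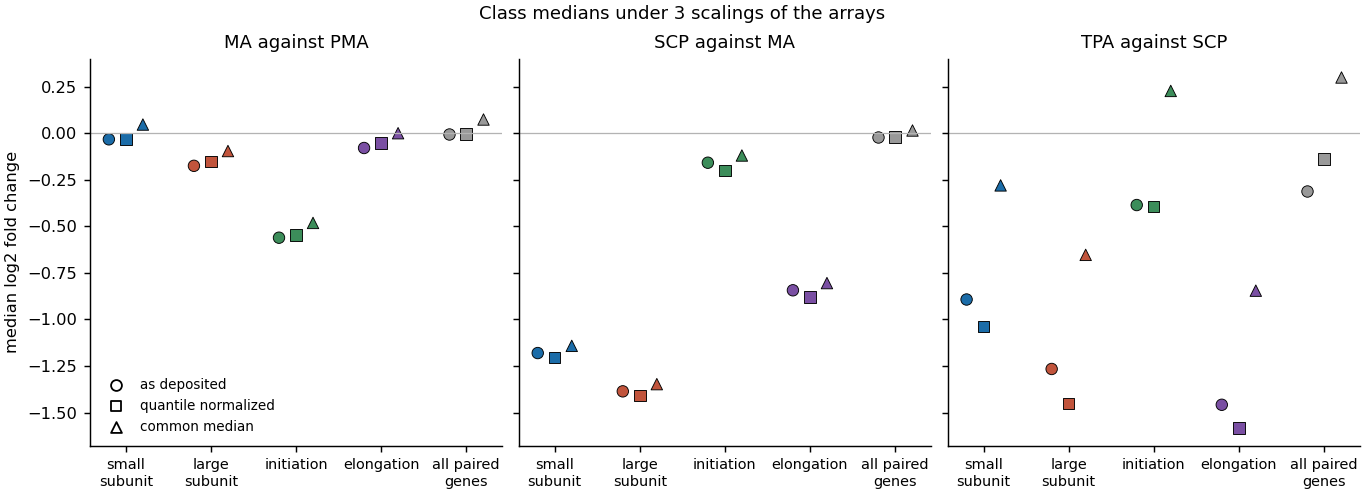
Median log2 fold change (vertical axis) of each class and of all paired genes (horizontal axis) in the 3 comparisons, from values as deposited (circles), quantile normalized (squares) and shifted to a common median of expressed probe sets (triangles). The scalings lie close together in SCP against MA, where the large subunit is at -1.39, -1.41 and -1.35, and apart in TPA against SCP, where it is at -1.27, -1.45 and -0.65 and the initiation median turns positive under the common median.

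After RPL18, rpl5 and RPL27, which are described further on, RPL9 and RPS3A had the largest falls among ribosomal proteins at this step. RPL9 was 1612, 2072 and 1373 in TPA, against 6093, 6294 and 6277 in SCP, and RPS3A was 1720, 2155 and 1703 in TPA, against 6419, 6430 and 7644 in SCP. Both groups of arrays were far apart, with log2 differences of -1.90 ± 0.13 for RPL9 (adjusted p = 2.53e-06) and -1.88 ± 0.12 for RPS3A (adjusted p = 1.88e-06), each past the threshold also after the common shift. RPL7A-2 followed at -1.60 ± 0.16 (adjusted p = 3.38e-05), and RPS7 and RPS4 were at -1.56 ± 0.14 (adjusted p = 1.34e-05) and -1.55 ± 0.08 (adjusted p = 3.50e-07). RPS15 was at -1.49 ± 0.33 (adjusted p = 0.00464) and lost the call in 11 of 12 fits without 1 array.

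Both elongation genes and 1 helicase of initiation fell as well. EF-1-beta, the exchange factor, was 2349, 2136 and 2062 in TPA, against 7718, 8272 and 8475 in SCP, a log2 difference of -1.90 ± 0.05 (adjusted p = 4.69e-09). EF-1-alpha, the tRNA carrier, was 9376, 9907 and 8257 in TPA, against 19587, 18236 and 17656 in SCP, at -1.01 ± 0.07 (adjusted p = 2.87e-06), again without overlap. The call on EF-1-alpha was lost in 2 of 12 fits without 1 array. For eIF-4A-1 the arrays read 1970, 2024 and 1854 in TPA, against 5473, 5569 and 4705 in SCP, at -1.43 ± 0.08 (adjusted p = 8.38e-07).

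Several genes called lower after meiosis were not called lower again. RPS26, RPL39C, rps20, RPL30, RPS10-1, RPS10-2, RPS27AA and eIF3k were called in SCP against MA and not in TPA against SCP. RPS26 read 2071, 3174 and 1365 in TPA, against 2234, 2075 and 2435 in SCP, which overlapped (-0.11 ± 0.24, adjusted p = 0.713). RPL30 was at -0.74 ± 0.13 (adjusted p = 0.00148) and eIF3k at -0.30 ± 0.04 (adjusted p = 0.000167), lower in every array but under 2-fold. Conversely RPL10A at -1.42 ± 0.08 (adjusted p = 4.86e-07), RPS21 at -1.34 ± 0.16 (adjusted p = 0.000113) and RPL39B at -1.27 ± 0.09 (adjusted p = 4.51e-06) were called in TPA against SCP and not in SCP against MA, where all of them were lower and short of the fold. Whether a gene's change differed between the 2 steps was not tested.

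The TPA arrays differed among themselves in this group. TPA replicate 2 held the highest of the 3 TPA signals for 27 of 33 genes and replicate 3 the lowest for 27 of 33, against 33.9% and 39.9% of the paired genes over 10 in TPA. Summed up by the median of log2 signal from each gene's mean over all arrays, the group stood at -1.61, -1.20 and -1.70 in TPA replicates 1 to 3, against -0.37, -0.40 and -0.26 in SCP. Leaving out TPA replicate 3 took the calls from RPS15, RPL3, RPL5A, RPL7A-1 and EF-1-alpha, and without replicate 2 RPS27AA was called lower, at -1.35 (adjusted p = 3.58e-06).

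Over the whole span, TPA against PMA, 27 of 33 genes were called lower and rps14 higher. Over all paired genes the shares were 31.8% lower and 15.4% higher. For paired genes over 10 in a stage these shares were 36.5% and 17.7%. The median log2 difference was -2.49 over the group, -2.25 in the small subunit, -2.90 in the large subunit and -2.38 in elongation, against -0.25 over all paired genes and -0.59 over those above 10 in a stage, and the median initiation gene was 2.01-fold lower. RPL18, 39.3-fold lower in TPA, and RPL7A-2, 12.9-fold lower, had the largest falls, while RPS4 was 9.87-fold, RPS3A 9.61-fold and EF-1-beta 7.96-fold lower. The uncalled genes were RPS10-1, RPL39C, eIF-4A-3, eIF4E and eIF4G. The comparisons share arrays with each other, so their values for a gene stand side by side and are not independent.

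Both genes called higher in TPA against SCP stood against their class. The gene listed as rps14 is known in rice to encode the mitochondrial ribosomal protein S14 together with the iron-sulfur subunit of succinate dehydrogenase, so its name puts it among ribosomal proteins of another compartment. Its signal was 7274, 7208 and 6464 in TPA, against 2590, 2427 and 2499 in SCP, without overlap (1.48 ± 0.10, adjusted p = 2.49e-06). The helicase eIF-4A-3 had 5622, 5533 and 4320 in TPA, against 2125, 1991 and 1699 in SCP, also without overlap (1.41 ± 0.12, adjusted p = 1.11e-05). In TPA against PMA eIF-4A-3 was at 0.33 ± 0.12 (adjusted p = 0.0465) with overlapping arrays. RPS10-1 also stood higher in TPA than in SCP, at 0.80 ± 0.16 (adjusted p = 0.00262), with 781, 795 and 558 in TPA against 366, 370 and 489 in SCP, but under 2-fold.

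The largest falls in TPA against SCP belonged to RPL18, rpl5 and RPL27, 3 genes of low signal. RPL18 and RPL27 carry the synonyms CL18 and CL27, of the same form as CL12, a synonym of rpl12-2, and rpl5 has its name in common with a mitochondrial gene. All lie in the nuclear genome, and in which ribosome they serve is not given in the table used here. None of them was called in MA against PMA or in SCP against MA. RPL18 read 20.4, 29.5 and 10.1 in TPA, against 534, 502 and 760 in SCP, a log2 difference of -5.01 ± 0.36 (adjusted p = 3.65e-06). The gene rpl5 read 21.4, 27.6 and 21.5 in TPA, against 195, 173 and 199 in SCP (-3.02 ± 0.13, adjusted p = 1.13e-07). RPL27 read 17.1, 33.3 and 6.48 in TPA, against 88.7, 71.6 and 98.7 in SCP (-2.47 ± 0.50, adjusted p = 0.00288), and this call was lost in 9 of 12 fits without 1 array. The TPA values lay near the background limit of 10. The other 2 probe sets of RPL27 were called lower as well, at -2.05 and -2.29. Without these 3 genes and rps14, 16 of 29 genes were called lower in TPA against SCP.

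Copies of the same protein, and members of the eIF4A family, changed by unequal amounts. For each pair the log2 ratio of the 2 copies was taken within each array and set to zero at its PMA mean, which cancels any shift common to an array, and the 4 stages were compared by an exact permutation test of the one-way F ratio over 369600 arrangements (smallest possible p 6.49e-05, adjusted over 7 pairs, all of which gave an adjusted p of 0.00539 or less). RPS10-1 gained on RPS10-2 by 0.48 ± 0.19 in SCP and 2.05 ± 0.24 in TPA (SD, n = 3, exact adjusted p = 0.000568). RPS10-1 itself was at -0.22 ± 0.16 in TPA against PMA (limma adjusted p = 0.270) and RPS10-2 at -2.26 ± 0.10 (limma adjusted p = 8.77e-08). RPL39C gained on RPL39B by 0.40 ± 0.08 in MA, was at -0.03 ± 0.11 in SCP and gained 1.37 ± 0.13 in TPA (exact adjusted p = 0.000682).

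RPS27A is made as a fusion with ubiquitin, and its copy RPS27AB gained on RPS27AA by 0.41 ± 0.06 in SCP and 0.99 ± 0.40 in TPA (exact adjusted p = 0.000455). The gain in TPA ranged over 0.54 to 1.27 among the 3 arrays. For RPL7A the ratio of RPL7A-2 to RPL7A-1 went the other way, at -0.50 ± 0.08 in MA and -0.41 ± 0.05 in SCP, and at -0.78 ± 0.17 in TPA (exact adjusted p = 0.000455). The MA arrays, -0.59 to -0.43, already lay below the PMA arrays, -0.05 to 0.04, although neither copy was called at that step.

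The eIF4A family showed the widest spread. Relative to eIF-4A-1, eIF-4A-3 stood at -0.77 ± 0.05 in MA, 0.15 ± 0.07 in SCP and 2.99 ± 0.15 in TPA, which is a shift of 7.93-fold from PMA (exact adjusted p = 0.000568). It was the 1 pair of which a copy was called higher and the other lower in the same comparison, TPA against SCP. For eIF-4A-III over eIF-4A-1 the values were -0.53 ± 0.10 in MA, 0.23 ± 0.20 in SCP and 1.40 ± 0.19 in TPA (exact adjusted p = 0.000682), and for eIF-4A-3 over eIF-4A-III they were -0.24 ± 0.12, -0.08 ± 0.25 and 1.59 ± 0.30 (exact adjusted p = 0.00539). Copies with similar sequence may share probes, and the pairs were picked by name.

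**Figure D4:**
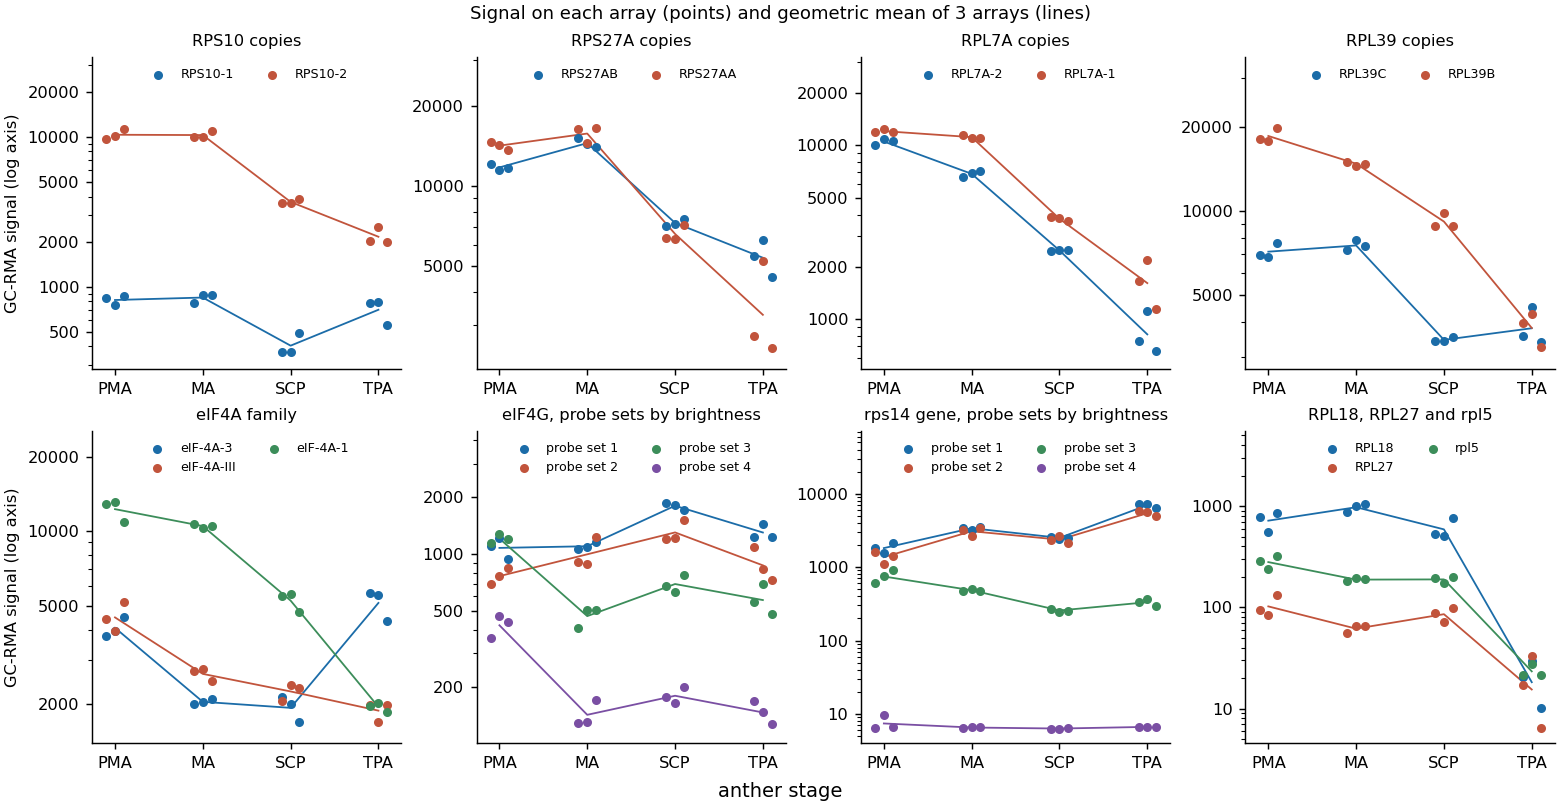
GC-RMA signal on each array (points, log axis) and the geometric mean of 3 arrays (lines) at the 4 stages, for copies of 4 ribosomal proteins, the eIF4A family, all probe sets of eIF4G and of the rps14 gene, and RPL18, RPL27 and rpl5. In TPA the eIF-4A-3 points, 4320 to 5622, lie above their SCP points, 1699 to 2125, while those of eIF-4A-1 lie below theirs; distances between curves of different probe sets carry no meaning.

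Probe sets of 1 gene gave different calls for eIF4G and rps14. Of 4 probe sets for eIF4G, the first and second were not called in any comparison. The third averaged 474 ± 56.6 in MA and 1213 ± 66.5 in PMA (-1.36, adjusted p = 0.000214), the fourth 143 ± 23.6 in MA and 424 ± 58.2 in PMA (-1.57, adjusted p = 0.000152). Whether eIF4G is level from PMA to MA therefore depends on the probe set. For rps14 the second probe set followed the first, with 3099 ± 372 in MA and 1384 ± 258 in PMA (called higher at 1.17, adjusted p = 0.000703). The third averaged 334 ± 37.3 in TPA and 754 ± 143 in PMA and was called lower (-1.16, adjusted p = 7.02e-05), and the fourth was at or under 7.54 in all stages. In all 11 genes had more than 1 probe set. The second probe set of eIF-4A-1 was at -0.93 in TPA against SCP and not called there. Dim probe sets of RPL10A, RPS21, RPS3A, rps20 and eIF-4A-1, 1 of each gene and none with a stage mean over 67.8, were called in no comparison. Of the 33 chosen probe sets 5 are of the _x_at kind (rps14, rps20, RPL10A, RPL39B and EF-1-alpha) and 3 of the _s_at kind (RPS3A, RPL39C and RPL9), which can catch transcripts of related genes.

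Other genes of translation and ribosome assembly were read from a list by symbol, of which 13 were measured. None was called higher in any comparison. Called lower were 0, 3, 7 and 11 in MA against PMA, SCP against MA, TPA against SCP and TPA against PMA. The shares of paired genes called lower were 4.45%, 8.33%, 30.7% and 31.8%. The medians of the list were -0.25, -0.69, -1.33 and -2.62, against -0.01, -0.02, -0.31 and -0.25 over all paired genes. PES, known in yeast and animals for large subunit assembly, averaged 103 ± 16.6 in TPA and 742 ± 40.1 in SCP (-2.87, adjusted p = 3.60e-06), and NUG2, a GTPase of the same process, 824 ± 88.6 in TPA and 3671 ± 107 in SCP (-2.16, adjusted p = 7.41e-08). BOP1, a partner of PES, was at -1.71 (adjusted p = 0.000192). These 3 of 4 assembly genes were called lower in TPA against SCP. RRP46 of the exosome was at -0.52 in that comparison (adjusted p = 0.191) and was called lower in TPA against PMA, at -2.20 (adjusted p = 0.000498).

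The 3 aminoacyl-tRNA synthetases LysRS (-1.88), MetRS (-1.82) and HisRS (-1.68) were called lower in TPA against SCP. RACK1A, a scaffold on the small subunit, followed the ribosomal proteins at both later steps, with -1.37 in SCP against MA (adjusted p = 1.06e-05) and -1.33 in TPA against SCP (adjusted p = 3.01e-06). Its copy RACK1B was not called at either. In SCP against MA RACK1B was at -1.36 (limma adjusted p = 0.0848), with every SCP array below every MA array. The TPA arrays of RACK1B spread widely at 1075 ± 730, and that spread enters its SE in every comparison. The poly(A)-binding PAB1 was at 0.01 in TPA against SCP (adjusted p = 0.961), with 1515 ± 145 in TPA and 1505 ± 117 in SCP, and the mitochondrial elongation factor EF-Gmt was at -0.06 (adjusted p = 0.789).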

How the data were processed

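RNA of 12 whole-anther samples, 3 per stage, was hybridized to 1-colour Affymetrix arrays. The authors made the deposited intensity values by GC-RMA in ArrayAssist, normalizing these arrays in 1 project with arrays of leaf, root, seedling, shoot apex and seed, which are not analysed here; GC-RMA removes background by probe GC content, equalizes arrays by quantiles and summarises probe sets. Quantile steps hide a change shared by most transcripts, and saturation cannot be seen in such values. Precision is limited by the number of arrays.

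Of 57381 probe sets, 123 control and 64 reporter probe sets were left out and 57194 tested. The log2 values went into 1 linear model over 12 arrays with 8 residual degrees of freedom (lmFit and eBayes of limma 3.58.1, R 4.3.3), with Benjamini-Hochberg adjustment over all 57194. A call needed an adjusted p of 0.005 or less and 2-fold. The scripts were tested on simulated data. Fold changes are the later stage minus the earlier on the log2 scale, and levels are means ± SD of 3 linear signals. The reference table pairs 22436 probe sets with 1 gene (17905 genes), named by the RefSeq annotation of assembly ASM3414082v1 of a japonica rice, without regard to case. A further 95 probe sets are listed with several genes or none of the table.

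Named genes are RPS10, RPL30, RPL9, RPS3A, EF-1-beta, eIF3k and eIF-4A-3. To these come, by class, the 3 largest called rises and falls in each adjacent comparison, the 2 brightest genes and the 2 with the smallest range, called genes that run against their class, and copies called in opposite directions. Genes named beyond these, such as those just short of the fold or with disagreeing probe sets, were chosen after their values were seen. The members and lists were chosen with earlier results of these data known. FIB and ZEP1, which matched other genes by synonym, were left out of the lists. Alternatives were the one-way ANOVA of the methods with an equal-variance t-test between pairs of stages, quantile normalization, a common median, a filter on dim probe sets, a pseudocount of 16, only the compared stages, a replicate block, other choices of probe set, each array left out, a looser threshold, and names left out.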

Additional observations from a re-analysis of the deposited data

How the results depend on the processing

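The group median was negative in every comparison under every alternative run. Leaving out 1 array at a time gave medians of -0.23 to -0.17 in MA against PMA, -1.16 to -1.07 in SCP against MA, -1.35 to -0.94 in TPA against SCP and -2.59 to -2.22 in TPA against PMA. Genes called lower then numbered 0 to 1, 15 to 20, 14 to 20 and 26 to 28 in these comparisons, genes called higher 0 to 1, 0, 2 and 1, and genes called over the 4 stages 29 to 31. All 12 omissions kept 14 of 20 calls in SCP against MA, 15 of 21 in TPA against SCP and 27 of 28 in TPA against PMA.

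The count in TPA against SCP depended most on the processing: 19 genes lower became 10 by an equal-variance t-test between pairs of stages, 6 with a common median and 11 when only the compared stages were fitted. The share of paired genes under that t-test and under the fit of only the compared stages is not given here. The 2 higher genes became 1 by that t-test, with the mean of all probe sets of a gene, without the 3 names in lower case and without the organelle-linked names, the name-based pair being alternatives chosen after seeing the data. In TPA against PMA the 1 higher gene became 3 with a common median and 0 with the mean of probe sets and without either kind of name. In MA against PMA 1 gene was higher without _x_at and _s_at probe sets, and at an adjusted p of 0.05 and 1.5-fold 1 was higher and 5 lower, with 1 higher in SCP against MA. With a common median the group medians were -0.13, -0.44 and -1.76 in MA against PMA, TPA against SCP and TPA against PMA, and with the mean of probe sets -2.26 in the last. The small subunit in MA against PMA turned to 0.047, initiation in TPA against SCP to 0.23 and elongation in MA against PMA to 7.0e-05 with a common median, and the last to 0.047 without _x_at and _s_at probe sets, where only EF-1-beta remained. The cause of these shifts was not tested.

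With the replicate number as a block, 29 genes were called over the 4 stages, 16 lower in SCP against MA, 17 lower and 2 higher in TPA against SCP and 26 lower and 1 higher in TPA against PMA. The numbers do not pair the samples: of 18 pairs of arrays with the same number, 1 had deviations that correlated over 0.1, and the lowest value was -0.064. Signals near 10, as for RPL18, RPL27 and rpl5 in TPA, limit how far a fall can be measured.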
